A study of Mus musculus with 6 samples.

Results

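The early neural genes described here are 7 protein-coding mouse genes, Nes, Sox11, Sox21, Tubb3, Pax6, Ncam1 and Map2, found in the table by their symbols. All 7 symbols were among the 25170 of the deposited table. They were measured by RNA-seq in mouse embryonic stem cells (ESCs) of the E14 line, either Hnrnpf knockout or wild type. The hnRNP F protein binds RNA and takes part in splicing. Knockout cells grown for 4 days without leukemia inhibitory factor (LIF) gave 2 libraries, and wild type cells grown the same way gave 1. Knockout cells kept with LIF gave 2 libraries, and wild type cells kept with LIF gave 1. The culture medium described for all of these cells held fetal bovine serum, with LIF at 1000 units/ml. It is not stated whether knockout libraries 1 and 2 are separate clones or cultures, which part of Hnrnpf was deleted, or how cells were grown once LIF was removed. The p-values below therefore measure only how far these libraries spread, which may be a technical spread.

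LIF is a cytokine that keeps mouse ESCs renewing themselves, and cells deprived of it in serum start to differentiate toward several germ layers. Neural differentiation of ESCs is known to pass through progenitors that carry SoxB transcription factors and the intermediate filament nestin, and later through neurons that build a stable, specialised microtubule cytoskeleton. The 7 genes sample that path at different depths. Nes marks progenitors, Sox11, Sox21 and Pax6 encode transcription factors, Tubb3 and Map2 encode microtubule components, and Ncam1 encodes a cell adhesion molecule.

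Hnrnpf itself was at 95.2 and 27.8 FPKM (a fragment number divided by transcript length and by the library's mapped total) in the knockout libraries after LIF removal, against 335 FPKM in the wild type library. In cells with LIF it was at 98.7 and 37.1 FPKM in the knockout libraries, against 342 FPKM in wild type cells. Over both media the difference was −2.58 on the log2(FPKM + 1) scale (SE 0.49, limma adjusted p = 0.0200). The knockout libraries thus kept between 8.28% and 28.9% of the wild type FPKM of the same medium, and library 2 had the lower value in each medium. FPKM summed to between 456155 and 556318 over a library. The summed FPKM of 6 pluripotency markers (Pou5f1, Nanog, Sox2, Zfp42, Utf1 and Dppa5a) was 2994 to 4068 after LIF removal and 6511 to 9253 with LIF, so the ESC markers were present in every library. The largest part of it was Dppa5a, at 1542 to 2155 FPKM after LIF removal and 4062 to 6460 FPKM with LIF. Nanog was at 126 to 185 and 189 to 230 FPKM, and Pou5f1 at 587 to 960 and 1002 to 1145 FPKM, in the same order.

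Nes and Sox11 are shown with the sequence before their start, since they had the lowest adjusted p among the members on LIF removal. Nes lies on the plus strand at chr3:87971078-87980451 and Sox11 on the minus strand at chr12:27334264-27342574 (GRCm38, GENCODE M21). The 250 bases before the RefSeq start are shown 5′ to 3′ on the gene's strand (GRCm38.p6). The Nes stretch is chr3:87970843-87971092, plus strand, and the Sox11 stretch is chr12:27342719-27342968, minus strand. Capitals mark matches on either strand to the GC box GGGCGG, the CCAAT box and the Sox core ACAAT.
Nes: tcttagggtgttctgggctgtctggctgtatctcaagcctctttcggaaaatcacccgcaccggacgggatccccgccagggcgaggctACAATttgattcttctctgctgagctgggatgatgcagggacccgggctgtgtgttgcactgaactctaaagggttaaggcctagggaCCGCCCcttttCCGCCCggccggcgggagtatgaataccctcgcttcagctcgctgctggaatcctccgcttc
Sox11: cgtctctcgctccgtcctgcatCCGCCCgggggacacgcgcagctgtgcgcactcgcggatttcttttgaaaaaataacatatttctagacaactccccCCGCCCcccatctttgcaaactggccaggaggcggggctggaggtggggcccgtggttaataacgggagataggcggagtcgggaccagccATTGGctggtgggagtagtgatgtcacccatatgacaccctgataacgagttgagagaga
Both stretches hold 2 GC boxes. Nes also holds 1 Sox core, and Sox11 holds 1 CCAAT box. In RefSeq windows of 300 bases, from 250 before to 50 after the start, a GC box was found in 35.7% of 32851 windows, a CCAAT box in 37.4% and ACAAT in 31.0%. Of the 7 members, 6 matched a window. The Map2 window held 5 GC boxes and the Tubb3 window 2, with 1 CCAAT box and 3 Sox cores. The first of the 2 Pax6 windows held 1 CCAAT box and 1 Sox core, and the Sox21 window held none of these letters. The octamer ATGCAAAT and the TATA box TATAAA, searched in the same way, were in no member's window and in 1.74% and 13.6% of all windows. CG dinucleotides numbered 16 to 37 in the members' windows, against a median of 7 over all windows. These matches describe letters and do not show a bound site.

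**Figure D1:**
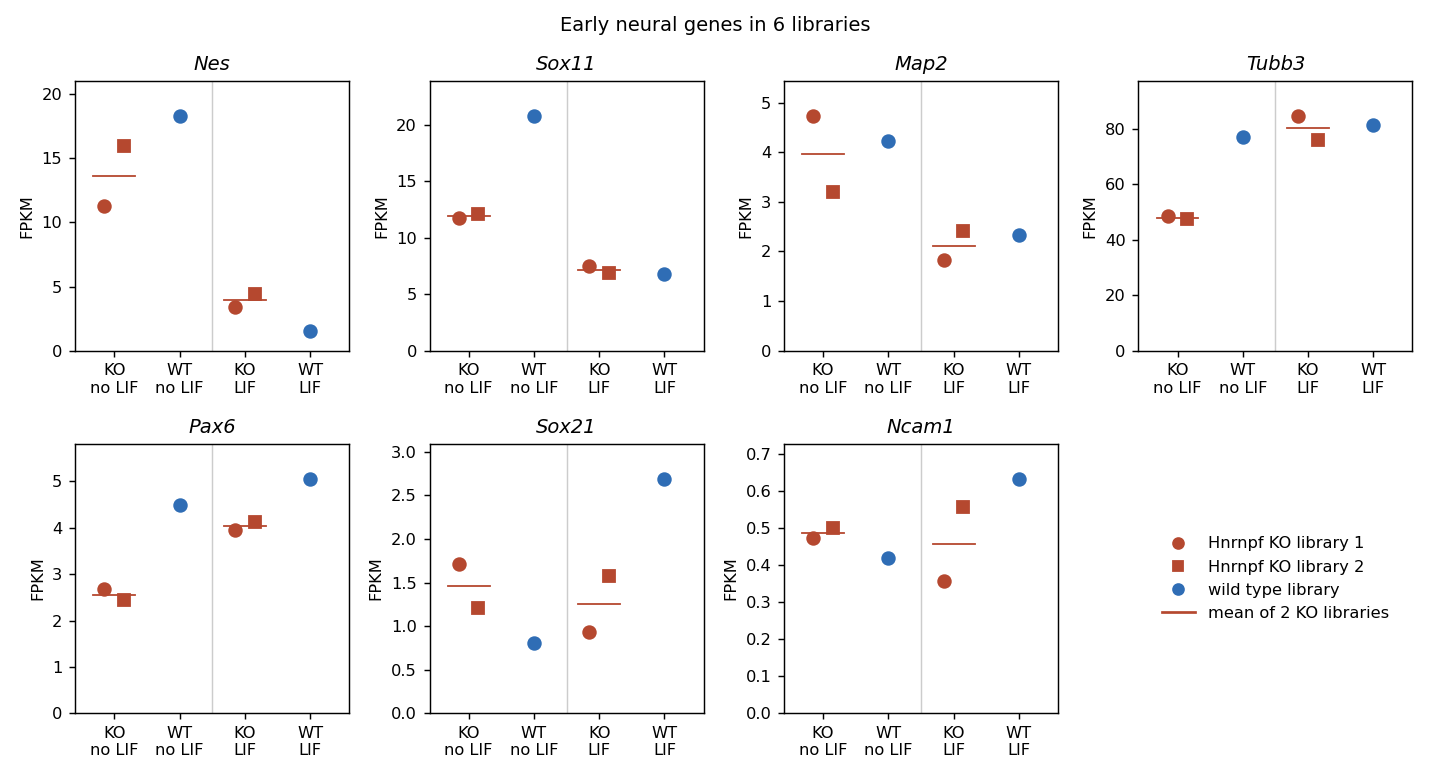
FPKM of the 7 early neural genes in each of the 6 libraries, with knockout in red (circle for library 1, square for library 2, line for their mean) and wild type in blue, each axis starting at 0. Nes, Sox11 and Map2 were higher in all 3 libraries after LIF removal than in any with LIF, while Ncam1 stayed below 1 FPKM throughout.

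The other members lie at chr1:66175273-66442583 (Map2, plus strand), chr2:105668900-105697364 (Pax6, plus), chr8:123411424-123422015 (Tubb3, plus), chr9:49502136-49798925 (Ncam1, minus) and chr14:118233232-118237030 (Sox21, minus). GENCODE lists between 1 transcript (Sox11, Sox21) and 26 (Pax6) for them. Sox21, Tubb3, Pax6, Ncam1 and Map2 each overlap another annotated gene, so their values may include fragments of it. No member was listed at 0 in any library. FPKM is scaled by transcript length, so levels can be set side by side across genes. Tubb3 was the highest member in all 6 libraries, at 47.5 to 84.5 FPKM, and Ncam1 the lowest in all 6, at 0.358 to 0.633 FPKM. The mean of Tubb3 over the libraries lay at the 94.7th percentile of all symbols in the table and that of Ncam1 at the 48.7th, where 7079 symbols were listed at 0 in every library. Sox11 and Nes followed Tubb3 with means of 10.97 and 9.15 FPKM, and their ranges over the libraries, 6.78 to 20.8 FPKM for Sox11 and 1.57 to 18.3 FPKM for Nes, overlapped. Pax6 (mean 3.79 FPKM) and Map2 (3.12 FPKM) overlapped as well, and Sox21 averaged 1.49 FPKM, with a range of 0.809 to 2.69 FPKM that overlapped theirs. Differences below are on the log2(FPKM + 1) scale, which understates the change of low genes. They were tested with limma for the 11785 genes that averaged 1 FPKM or more, with Benjamini-Hochberg adjustment over all of them and a threshold of 0.05. Of the 7 members, 6 passed that filter, and Ncam1 did not.

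LIF removal, over both genotypes, raised Nes, Sox11 and Map2 and lowered Tubb3, while Pax6 and Sox21 did not pass the test. Thus 4 of the 6 tested members were called, where 21.4% of all tested genes were called. In the upward direction 3 of 6 were called, against 8.73% of all genes, and in the downward direction 1 of 6, against 12.7%. The median difference was 0.20 over the 6 members and −0.03 over all tested genes. Nes was called under all 12 alternative settings, Sox11 under 10, Map2 under 5 and Tubb3 under 4. In wild type cells, with 1 library per medium, Tubb3 differed by only −0.08. In RNA from whole cultures, a change in the number of cells that carry a transcript and a change in transcript per cell cannot be told apart.

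Nes encodes nestin, an intermediate filament protein of neural progenitors that is also made in muscle and endothelial progenitors. It was at 11.2 and 16.0 FPKM in knockout cells and 18.3 FPKM in wild type cells after LIF removal, against 3.41 and 4.42 FPKM in knockout cells and 1.57 FPKM in wild type cells with LIF. Every library after LIF removal was above every library with LIF. Its mean was 15.2 ± 3.58 FPKM after LIF removal and 3.13 ± 1.44 FPKM with LIF (SD, n = 3 each). Each n pools 2 knockout libraries and 1 wild type library, so the SD includes any difference between genotypes. The difference was 2.01 (SE 0.28, limma adjusted p = 0.00352), the largest among the members, and it passed under all 12 alternative settings. Among the members Nes ranked 6 in level in wild type cells with LIF and 2 to 4 in the other libraries.

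Map2, on chromosome 1, encodes a microtubule-associated protein of neuronal dendrites. It was at 4.73 and 3.20 FPKM in knockout cells and 4.23 FPKM in wild type cells after LIF removal, against 1.82 and 2.40 FPKM in knockout cells and 2.34 FPKM in wild type cells with LIF. The media did not overlap, and the lowest value after LIF removal belonged to knockout library 2. The difference was 0.66 (SE 0.18, limma adjusted p = 0.0381). The call was lost without any one library other than knockout library 2 after LIF removal, with adjusted p = 0.0562 to 0.140, and without the filter on low values or with quantile normalization.

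Tubb3, on chromosome 8, encodes class III beta tubulin, a tubulin used widely as a neuronal marker. It was at 48.4 and 47.5 FPKM in knockout cells and 77.1 FPKM in wild type cells after LIF removal, against 84.5 and 75.9 FPKM in knockout cells and 81.3 FPKM in wild type cells with LIF. The wild type library without LIF lay within the range seen with LIF, and only the 2 knockout libraries after LIF removal stood apart, on the low side. The difference over both genotypes was −0.51 (SE 0.14, limma adjusted p = 0.0398). The call was lost without knockout library 1 or 2 with LIF (adjusted p = 0.127 and 0.0952) or after LIF removal (0.104 and 0.109), and under 4 of the other alternatives.

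Sox11 encodes a SoxC transcription factor known to activate neuronal genes in newborn neurons. It was at 11.8 and 12.1 FPKM in knockout cells and 20.8 FPKM in wild type cells after LIF removal, against 7.49 and 6.87 FPKM in knockout cells and 6.78 FPKM in wild type cells with LIF. The 3 libraries with LIF lay close together, and the wild type library without LIF stood above all others. The difference was 0.94 (SE 0.18, limma adjusted p = 0.0110). Without the wild type library kept with LIF, or without the one after LIF removal, it was 0.66 with adjusted p = 0.0550 and 0.0605. Both fits give the difference within knockout cells.

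Pax6 encodes a paired-box and homeodomain transcription factor of the eye and forebrain. It was at 2.67 and 2.43 FPKM in knockout cells and 4.50 FPKM in wild type cells after LIF removal, against 3.95 and 4.11 FPKM in knockout cells and 5.05 FPKM in wild type cells with LIF. The media overlapped, and the 2 knockout libraries after LIF removal were the lowest of the 6. The difference was −0.38 (SE 0.16, limma adjusted p = 0.119). An antisense gene, Pax6os1, overlaps the locus and was listed at 0 in all 6 libraries. Whether fragments were assigned by strand is not given in the sources used here.

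Sox21 encodes a SoxB2 factor that counteracts SoxB1 proteins such as Sox2. It was at 1.71 and 1.21 FPKM in knockout cells and 0.809 FPKM in wild type cells after LIF removal, against 0.929 and 1.58 FPKM in knockout cells and 2.69 FPKM in wild type cells with LIF. The highest and the lowest value both came from wild type cells, and the media overlapped. The difference was −0.25 (SE 0.28, limma adjusted p = 0.547). Ncam1, the neural cell adhesion molecule, was at 0.473 and 0.5004 FPKM in knockout cells and 0.419 FPKM in wild type cells after LIF removal, against 0.358 and 0.556 FPKM in knockout cells and 0.633 FPKM in wild type cells with LIF. Its media overlapped, and with no filter on low values its limma adjusted p was 0.798.

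**Figure D2:**
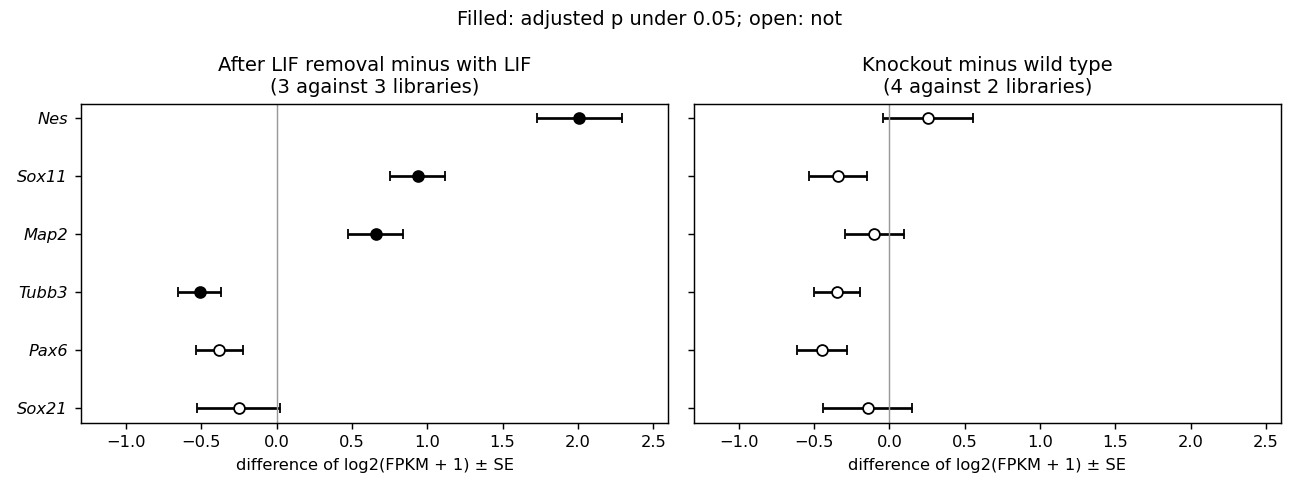
Difference of log2(FPKM + 1) ± SE for the 6 tested members, on the left after LIF removal minus with LIF (3 against 3 libraries) and on the right knockout minus wild type (4 against 2), filled where the limma adjusted p was under 0.05. On the left Nes, Sox11, Map2 and Tubb3 are filled, at 2.01, 0.94, 0.66 and −0.51, and on the right no member is.

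Within knockout cells, with 2 libraries against 2, LIF removal changed Nes and Tubb3, so 2 of 6 members were called where 6.92% of all tested genes were. Each direction had 1 member, higher against 3.05% of all genes and lower against 3.88%, and at an unadjusted p under 0.05 there were 5 of 6 members against 27.5%. Nes differed by 1.56 (SE 0.23, limma adjusted p = 0.0220) and Tubb3 by −0.73 (SE 0.13, limma adjusted p = 0.0299). The Nes call was lost without knockout library 1 with LIF (adjusted p = 0.0589) or knockout library 2 after LIF removal (0.0600), and the Tubb3 call without any one of the 4 knockout libraries (0.0538 to 0.132). Neither call was made without the filter on low values. Sox11 differed by 0.66 (adjusted p = 0.0570), Map2 by 0.66 (0.138), Pax6 by −0.50 (0.149) and Sox21 by 0.13 (0.778).

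Wild type cells had 1 library in each medium, and this contrast was not tested, so the differences are those of 2 libraries. Nes was at 18.3 FPKM after LIF removal and 1.57 FPKM with LIF, an 11.6-fold ratio of FPKM and 2.91 on the log2(FPKM + 1) scale. For Sox11 the ratio was 3.06 and the log2 difference 1.48. Sox21 went the other way by −1.03, while Map2 differed by 0.65, Tubb3 by −0.08, Pax6 by −0.14 and Ncam1 by −0.20. A log2 difference of at least 1 was seen for 3 of the 6 filtered members and for 8.36% of all filtered genes. In the upward direction it was 2 of 6 against 3.8%, and in the downward direction 1 of 6 against 4.56%.

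Loss of Hnrnpf changed none of the 6 tested members past the threshold over both media, where 10.5% of all tested genes were called, 5.79% higher and 4.67% lower. Differences, knockout minus wild type, were 0.25 for Nes (SE 0.30, limma adjusted p = 0.626), −0.34 for Sox11 (0.19, 0.299), −0.15 for Sox21 (0.29, 0.793), −0.35 for Tubb3 (0.15, 0.184), −0.45 for Pax6 (0.17, 0.127) and −0.10 for Map2 (0.19, 0.784). At an unadjusted p under 0.05 there was 1 member of 6, Pax6, against 27.7% of all genes. The signs for Nes, Sox11 and Sox21 turned when a single library was left out. Without the wild type library kept with LIF, Nes was −0.42 and Sox21 0.44. Sox21 was 0.027 without knockout library 1 with LIF, and Sox11 was 0.07 without the wild type library without LIF. A fit without 1 wild type library takes the knockout difference from the other medium alone. The values without a wild type library therefore repeat the difference of that medium, given below, and are not a separate check.

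Each medium was also taken alone, with 2 knockout libraries against 1 wild type library, whose spread is assumed to be that of the knockout libraries. The calls below take the libraries as unpaired. They change where the knockout number is fitted as a block, as given in the closing section. After LIF removal no member was called, where 0.0594% of all genes were, and 3 of 6 had an unadjusted p under 0.05, against 15.5% of all genes. These were Sox11, at −0.75 (SE 0.19, limma adjusted p = 0.159), Tubb3, at −0.67 (SE 0.16, adjusted p = 0.151), and Pax6, at −0.63 (SE 0.23, adjusted p = 0.263). In all 3 of these genes both knockout libraries were below the wild type library. With LIF no member was called either, where 0.0424% of all genes were, and 1 of 6 had an unadjusted p under 0.05, against 16.7%. This was Nes, at 0.93 (SE 0.28, limma adjusted p = 0.177), with both knockout libraries above the wild type library. The other members differed with LIF by between −0.73 (Sox21) and 0.07 (Sox11).

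Genes across chromosome 8, where Tubb3 lies, differed as a group in knockout library 2. The median difference from the wild type library over 650 genes of the chromosome was −0.05 in knockout library 1 and −0.40 in library 2 after LIF removal, and 0.08 and −0.35 with LIF. Tubb3 itself differed by −0.66 in library 1 and −0.69 in library 2 after LIF removal, and by 0.05 and −0.10 with LIF. Over 87 genes within 5 Mb of Tubb3 the medians were −0.13 in library 1 and −0.50 in library 2 after LIF removal, and 0.10 and −0.46 with LIF. The part of this shift in the Tubb3 values was not tested. The chromosomes of the other members had medians between −0.14 and 0.02. Within 5 Mb of those members, over 21 to 104 genes, the medians ranged more widely. They lay between −0.33 (Map2, library 2 with LIF) and 0.16 (Pax6, library 1 after LIF removal).

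**Figure D3:**
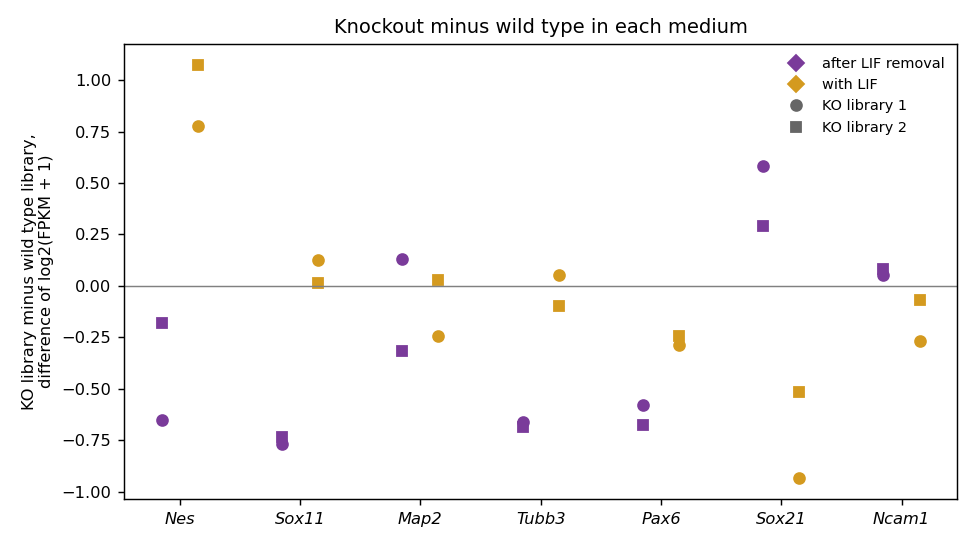
Each knockout library minus the wild type library of the same medium, as a difference of log2(FPKM + 1), for the 7 genes, in purple after LIF removal and in orange with LIF (circle for library 1, square for library 2). Nes and Sox11 lie below 0 after LIF removal and above 0 with LIF in both knockout libraries, and Sox21 and Ncam1 lie the other way round.

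Whether the genotypes responded differently to LIF removal was tested as an interaction in the fit with 4 groups. No member passed, and no gene of the 11785 did (0% called), with a limma adjusted p of 0.9996 for each member. The difference of the responses, knockout minus wild type, was −1.34 for Nes (SE 0.39, unadjusted p = 0.0116), −0.82 for Sox11 (0.27, 0.0212), −0.65 for Tubb3 (0.22, 0.0225), 1.16 for Sox21 (0.45, 0.0380), −0.36 for Pax6 (0.33, 0.305) and 0.02 for Map2 (0.42, 0.970). At an unadjusted p under 0.05 these were 4 of 6 members, against 2.89% of all tested genes. The values rest on 1 wild type library in each medium. Both knockout libraries lay on one side of the wild type library without LIF and on the other side with it for 3 of the 6 tested members (Nes, Sox11 and Sox21), against 11.3% of all tested genes, and for Ncam1. The smallest of these library differences were 0.016 for Sox11 with LIF and 0.054 for Ncam1 after LIF removal. For Map2 the response was of like size in knockout (0.66) and wild type cells (0.65), although the 2 knockout libraries differed from each other, at 1.02 and 0.30.

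Other genes of the same families and of the neural programme were followed in lists chosen by function. For each list, the shares over all tested genes were 8.73% higher and 12.7% lower on LIF removal. Knockout over both media called 10.5% of all tested genes. Among 29 transcription factors of neural progenitors, 14 passed the filter on low values, and on LIF removal 2 were higher and 1 was lower, with a median of 0.26. Sox3, a SoxB1 partner of Sox2, was at 9.64 and 20.5 FPKM in knockout cells and 20.0 FPKM in wild type cells after LIF removal, against 3.86 and 6.57 FPKM in knockout cells and 3.54 FPKM in wild type cells with LIF, a rise of 1.61 (limma adjusted p = 0.0105). Irx3 rose by 0.78 (adjusted p = 0.0244). Sox2, which acts both in pluripotency and in neural progenitors, fell by 0.94 on the log2 scale (adjusted p = 0.00201), to 144 to 183 FPKM against 257 to 385 FPKM with LIF. The 15 factors under the filter included Sox1, Zic1, Hes5, Neurog1, Neurog2 and Olig2, of which Sox1 reached 1.19 FPKM at most and Neurog2 0.114 FPKM. Knockout changed none of the 14 past the threshold over both media.

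Of the 8 SoxB and SoxC genes, 6 were tested, and LIF removal raised Sox3 and Sox11 and lowered Sox2 and Sox12 (−0.50, limma adjusted p = 0.0232), with a median of 0.09. Sox1 and Sox14 were below the filter. Pax6 was 1 of only 2 Pax genes of 9 that passed the filter. The other, Pax8, ranged from 0.0389 FPKM in a knockout library after LIF removal to 2.85 FPKM in a knockout library with LIF and did not pass the test (−1.01, adjusted p = 0.0569). Pax4 was listed at 0 in every library.

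Of 10 intermediate filament genes of types III to VI, Nes among them, 9 were tested. On LIF removal 4 rose, Nes included, where 8.73% of all tested genes did, none fell, and the median was 0.59. Nefl, the light neurofilament subunit, was at 16.3 and 21.9 FPKM in knockout cells and 29.7 FPKM in wild type cells after LIF removal, against 3.27 and 4.62 FPKM in knockout cells and 3.96 FPKM in wild type cells with LIF (2.22, limma adjusted p = 0.00107). Nefm, the medium subunit, differed by 2.04 (adjusted p = 0.00574) and Synm, which encodes synemin, by 0.92 (0.00772). Vim, which encodes the widely made partner of nestin, vimentin, did not pass (0.59, adjusted p = 0.170). Nefh, the heavy subunit, was instead higher in knockout cells over both media (0.95, adjusted p = 0.0306), at 6.68 to 8.11 FPKM in the 4 knockout libraries against 4.72 and 2.46 FPKM in the 2 wild type libraries.

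Tubb3 belongs to a family of 8 beta tubulin genes, of which 7 were tested, 2 rose and 2 fell on LIF removal. Tubb4a rose by 2.03 (limma adjusted p = 0.00233) and Tubb6 by 0.99 (0.00477). Tubb2b was at 48.2 and 50.9 FPKM in knockout cells and 91.4 FPKM in wild type cells after LIF removal, against 90.0 and 94.9 FPKM in knockout cells and 213 FPKM in wild type cells with LIF. It was lower after LIF removal (−0.997, adjusted p = 0.00151) and lower in knockout cells (−1.04, adjusted p = 0.00751), with no overlap between the genotypes within a medium. Tubb2a and Tubb2b are close paralogs, so the split of fragments between them is uncertain. The median of the 7 was −0.12 on LIF removal and 0.13 after quantile normalization, so the family as a whole has no direction that holds across scalings.

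Of 15 microtubule-associated protein genes, 12 were tested. On LIF removal Map2 and Mapre1 (0.42) rose, and Stmn1 (−1.03), Map7 (−0.77) and Map1a (−0.65) fell, with a median of 0.06. Stmn1, which encodes the microtubule-destabilising protein stathmin, was also lower in knockout cells (−0.85, limma adjusted p = 0.0111), at 24.3 to 59.9 FPKM in the knockout libraries against 51.1 and 90.4 FPKM in the wild type libraries. Mapt and Dcx, which mark neurons, were below the filter, at up to 1.65 and 0.143 FPKM.

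Of 30 genes of neuronal differentiation, 13 were tested. On LIF removal 4 rose, where 8.73% of all tested genes did, and none fell, where 12.7% did, and the median was −0.0047. Besides Nefl and Nefm these were Gap43, a growth cone protein, and Neurod1 (0.80, limma adjusted p = 0.0367), a neurogenic transcription factor. Gap43 was at 19.3 and 20.6 FPKM in knockout cells and 7.18 FPKM in wild type cells after LIF removal, against 6.16 and 8.31 FPKM in knockout cells and 2.53 FPKM in wild type cells with LIF. It rose by 1.31 on LIF removal (adjusted p = 0.00170) and by 1.28 in knockout cells (adjusted p = 0.00852). Tagln3 was lower in knockout cells (−1.02, adjusted p = 0.0181), at 3.67 to 5.29 FPKM in the knockout libraries against 6.62 and 14.6 FPKM in the wild type libraries. Among 13 genes of neural adhesion and polysialylation, 4 were tested, and Cdh2 (1.13, adjusted p = 0.0117) and Nrcam (0.93, adjusted p = 0.0226) rose, with a median of 0.71, while Ncam1, Ncam2 and L1cam were below the filter.

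Rest, the repressor that silences neuronal genes outside neurons, was at 31.6 and 23.0 FPKM in knockout cells and 31.7 FPKM in wild type cells after LIF removal, against 47.0 and 40.7 FPKM in knockout cells and 46.0 FPKM in wild type cells with LIF (−0.62, limma adjusted p = 0.0182). In the list of 12 such repressors and cofactors, all of them tested, Ehmt2 (−0.54) and Ctdsp2 (−0.40) fell as well and Ctdspl (1.12) rose, with a median of −0.10. Of 19 neuronal splicing regulators, 11 were tested, and Mbnl1 (0.96, adjusted p = 0.0112) and Khdrbs3 (0.60) rose, with a median of 0.07. In these lists 24 genes other than the members were called on LIF removal. Over all tested genes 21.4% were called. Some genes are in more than 1 list, and the share called over the lists together was not computed, so the 24 cannot be set against it. Of these 24 genes, 9 were called under all 12 alternatives: Sox2, Nefl, Gap43, Tubb2b, Tubb4a, Tubb6, Stmn1, Synm and Mbnl1. Another 12, Sox3, Irx3, Neurod1, Sox12, Map7, Mapre1, Map1a, Cdh2, Ctdspl, Rest, Ctdsp2 and Khdrbs3, lost the call without either wild type library (adjusted p = 0.0599 to 0.127). In those fits the difference comes from knockout libraries alone, and calls over all tested genes fell from 2523 to 817 and 821. Nefm lost the call without the wild type library without LIF (0.0512), and Nrcam and Ehmt2 without any one of the 4 knockout libraries (0.0531 to 0.0740). Nrcam and Ehmt2 also lost it with quantile normalization. Of the 12 genes lost without either wild type library, Sox3, Map7, Cdh2 and Ctdspl were called under 10 of the 12 alternatives. The others also lost the call without at least 1 knockout library. Ctdsp2 was called under only 4 alternatives, Map1a under 5, and Irx3, Neurod1 and Mapre1 under 6. Knockout over both media called 5 genes of the lists, Gap43 and Nefh upward and Tagln3, Tubb2b and Stmn1 downward. Over all tested genes it called 10.5%, and the share over the lists together was again not computed. Each of these 5 calls was lost without either wild type library. Such a fit sets the knockout libraries of 1 medium against 1 wild type library, so that loss does not show how firm a call is. Nefh also lost its call with no filter on low values (limma adjusted p = 0.0972) and without knockout library 1 or 2 with LIF. Tagln3 also lost its call with no filter (0.0658). The directions of these 5 genes held under all 12 alternatives.

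**Figure D4:**
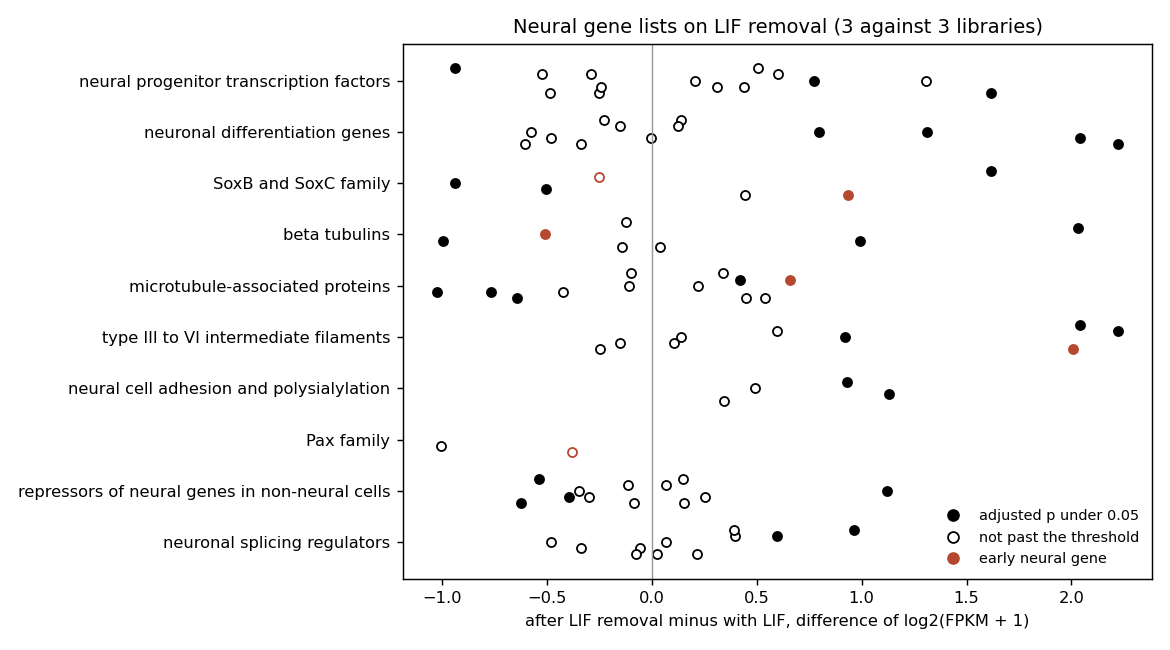
Difference of log2(FPKM + 1), after LIF removal minus with LIF (3 against 3 libraries), for each tested gene of 10 functional lists, filled where the limma adjusted p was under 0.05 and red for the early neural genes. Intermediate filaments and neuronal differentiation genes have 4 filled points each, all above 0, while beta tubulins have 2 above and 2 below.

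Markers of mature neurons and of other cell types were read from the same libraries. The summed FPKM of 6 neuronal markers was 50.2 to 74.7 after LIF removal and 65.8 to 83.6 with LIF. Most of it was Stmn2, at 47.8 to 77.2 FPKM over the 6 libraries, while Dcx reached 0.143 FPKM and Rbfox3, which encodes the neuronal nuclear antigen NeuN, 0.678 FPKM. Markers of the primitive streak and mesoderm (8 genes) summed to 15.1 to 30.1 FPKM after LIF removal and 6.50 to 8.48 FPKM with LIF. T, Eomes and Hand1 made up most of this sum, and the other 5 genes summed to 0.914 to 2.83 FPKM after LIF removal and 1.34 to 2.26 FPKM with LIF. Glial markers (7 genes, with S100b and Aqp4 below 0.1 FPKM in all libraries) summed to 8.95 to 16.4 FPKM after LIF removal and 4.67 to 8.70 FPKM with LIF. Nearly all of it was Slc1a3, at 7.64 to 15.4 FPKM after LIF removal and 4.02 to 7.91 FPKM with LIF, and the other 6 genes summed to 0.991 to 1.313 and 0.647 to 1.309 FPKM. Endothelial markers (5 genes, with Cdh5 and Emcn below 0.1 FPKM) summed to 4.33 to 6.51 and 3.18 to 4.65 FPKM, which overlapped. Markers of skeletal muscle progenitors (5 genes, Myf5 below 0.1 FPKM) summed to 3.39 to 5.58 FPKM after LIF removal and 4.01 to 6.11 FPKM with LIF. The sums overlapped as well for endoderm (8 genes, with Afp below 0.1 FPKM, 3.01 to 4.79 and 2.84 to 3.86 FPKM), trophoblast (7 genes, 30.1 to 41.3 and 25.1 to 39.2 FPKM), fibroblasts (8 genes, with Lum and Postn below 0.1 FPKM, 5.85 to 8.64 and 3.39 to 8.39 FPKM) and neural crest (7 genes, 20.3 to 28.0 and 17.6 to 30.7 FPKM), with the values after LIF removal given before those with LIF. Without Tfap2c, at 10.7 to 17.5 FPKM after LIF removal and 16.9 to 33.4 FPKM with LIF, the other 6 trophoblast genes, of which Eomes and Hand1 are also in the streak list, summed to 14.7 to 24.2 FPKM after LIF removal and 5.76 to 10.2 FPKM with LIF and did not overlap. The part of these cell types in the members' values was not tested.

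The members did not share 1 pattern over the 6 libraries. Pearson's r of log2(FPKM + 1), given as a description over 6 libraries that share their media and genotypes, was 0.938 between Tubb3 and Pax6 and 0.895 between Nes and Sox11. It was 0.808 between Sox11 and Map2 and −0.631 between Nes and Tubb3. Among 1792 genes that averaged 5 FPKM or more and ranged over 1 or more on the log2 scale, the most like Nes were Zyx (r = 0.994), Tubb4a (0.993) and Epha1 (0.992). Zyx was at 40.6 and 58.6 FPKM in knockout cells and 52.0 FPKM in wild type cells after LIF removal, against 12.5 and 16.4 FPKM in knockout cells and 6.71 FPKM in wild type cells with LIF, with the lowest value in the wild type library kept with LIF as for Nes. Sox11 was most like Ccdc194 (0.962), Septin3 (0.951) and Tpm4 (0.950), and Map2 most like Nexmif (0.997), Pggt1b (0.986) and Epm2aip1 (0.978). Tubb3 was most like Vars2 (0.966), Anxa11 (0.954) and Acot7 (0.954), and Pax6 most like Hirip3 (0.975), Slc29a4 (0.971) and Rabggtb (0.971). For Sox21 the nearest were Tfap2c (0.912), Aamdc (0.898) and Trim13 (0.851), and Tfap2c was highest, at 33.4 FPKM, in the wild type library kept with LIF and lowest, at 10.7 FPKM, in the wild type library without LIF, as Sox21 was.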

How the data were processed

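RNA-seq values of 6 libraries were taken as deposited, as FPKM per gene symbol, made with STAR and Cufflinks on mm10 per the submitters' processing notes. Their versions and settings and the annotation are not named in the sources used here, and reads were 150 bp paired-end per the labels' protocols. The authors' FPKM values carry no read number, so the depth behind a value is unknown and no counting interval is given. The commonest ratio of low values put relative depth between 0.846 and 1.08 times that of the wild type library kept with LIF, but held only 12.2% to 15.5% of low genes.

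Values were analysed as log2(FPKM + 1) with limma 3.58.1 in R 4.3.3 (intensity trend, two-sided) for genes averaging 1 FPKM or more. A fit with genotype and medium as additive terms gave the effects over both media and genotypes (3 residual degrees of freedom). A fit with 4 groups gave the others (2 residual degrees of freedom, from knockout libraries only). The scripts were tested on simulated data for LIF removal over both genotypes only, with large differences in well-expressed genes and independent libraries. Small differences, low genes and the other comparisons were not simulated. Alternatives were a pseudocount of 0.1, no filter, quantile and median ratio scaling, no trend, the knockout number as a block and each library left out. Members and lists were chosen with earlier results of these data known, and the 5 Mb window around each gene was chosen after values were seen. Named genes were the members, Hnrnpf, in each list up to 4 other genes with the lowest p on LIF removal and the called ones where there were 6 or fewer, and for each tested member the 3 genes of highest Pearson correlation, leaving out unnamed gene models and ribosomal, mitochondrial and small RNA genes. Not all genes these rules select are described. Positions are from GENCODE M21 (GRCm38) and promoter windows from RefSeq (GRCm38.p6).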

Additional observations from a re-analysis of the deposited data

Results flagged for a closer look

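In 4 of the 7 genes both knockout libraries lay on one side of the wild type library without LIF and on the other side with LIF. Of the 6 tested members 3 did so, against 11.3% of all tested genes. The knockout difference after LIF removal minus that with LIF was −1.34 for Nes, −0.82 for Sox11, 1.16 for Sox21 and 0.24 for Ncam1 (differences of log2(FPKM + 1)). The interaction test by limma gave an adjusted p of 0.9996 for Nes, Sox11 and Sox21, and with no filter on low values 0.985 for Ncam1. Each value rests on 1 wild type library per medium. No explanation was tested.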

How the results depend on the processing

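Of 223 member differences recomputed under settings other than a left-out library, 204 were counted as kept, as were 162 of 192 with a library left out. A tested difference was kept if its direction and its side of the threshold stayed. The untested wild type differences have no threshold and were kept if they moved by less than the SD of the knockout libraries. Differences not called in the main fit count as kept when they stay uncalled, so these counts do not measure how firm the calls are. On LIF removal over both genotypes the 4 called members became 2 with no filter on low values, 2 with quantile normalization and 2 to 3 with a library left out. In knockout cells alone the 2 called members became 0 with no filter, 1 with no trend and 0 to 2 with a library left out. The labels do not say that a knockout number pairs the libraries, although library 1 minus 2 correlated between media (r = 0.366 over 11785 genes). With the replicate block, 1 member was called for knockout with LIF (Nes, limma adjusted p = 0.0278), against 0, and 2 for knockout after LIF removal (Sox11, 0.0470, and Tubb3, 0.0380), against 0.

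Tubb3 for knockout with LIF turned to 0.062 with quantile normalization and 0.011 with median ratio scaling. With a library left out, signs turned as follows. LIF removal over both genotypes gave Sox21 −0.48 to 0.13, where the upper end is the difference within knockout cells. Knockout over both media gave Nes −0.42 to 0.93, Sox11 −0.75 to 0.071 and Sox21 −0.73 to 0.44. The ends of these ranges come from leaving out a wild type library and repeat the differences of each medium alone. Knockout with LIF gave Tubb3 −0.099 to 0.054 and Map2 −0.24 to 0.028. Knockout after LIF removal gave Map2 −0.32 to 0.13, LIF removal in knockout cells gave Sox21 −0.074 to 0.34, and the difference of responses gave Map2 −0.21 to 0.24. The causes were not tested.

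Over all genes, LIF removal called 2523, and 817 to 1924 with a library left out. Knockout over both media called 1232, against 335 with no filter, 2147 with the block and 5 to 994 with a library left out. LIF removal in knockout cells called 816, against 0 with no filter, 2621 with the block and 124 to 821 with a library left out. Knockout with LIF called 5, against 0 with no filter or no trend, 971 with the block and 4 to 14 with a library left out. Knockout after LIF removal called 7, against 13 with a pseudocount of 0.1, 0 with no filter, 4 with no trend, 783 with the block and 5 to 16 with a library left out. With that pseudocount the untested wild type differences were 3.46 for Nes and −1.62 for Sox21, against 2.91 and −1.03.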
